A study of Mus musculus with 9 samples.

Results

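The transcription factor genes Fezf2, Bcl11a, Bcl11b, Sox5, Tbr1, Foxp1 and Foxp2 were examined as a set of projection neuron identity factors in embryonic mouse cerebral cortex. The members were chosen by name, and their probe sets were those that the array's platform table assigns to the member gene alone. All 7 were measured, out of 16854 genes tested, with 178 probe sets of which 173 passed the limit for dim signal. RNA came from cerebral cortex of embryos at stage E13.5, on 9 exon arrays with 1 array per embryo sample. The groups were 3 wild-type controls, 3 Sfpq+/- samples and 3 Sfpq-/- samples, and Sfpq encodes a nuclear RNA-binding protein. The labels name no Cre driver, no deleted exon, no strain and no litter, and the extraction notes name Sfpq+/- in both mutant places and Sfpq-/- in none. Litters are not stated, so p-values measure only the spread between these samples, which may be technical in part.

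Excitatory projection neurons of the cortex are sorted into types by where they send their axons, and a small network of transcription factors sets these identities as the neurons are born. Fezf2 and Bcl11b (also called Ctip2) act in neurons that project to the brainstem and spinal cord. Tbr1 and Sox5 act in early-born corticothalamic and subplate neurons, and both are known to restrain Fezf2 or its targets. Bcl11a (Ctip1) is a close relative of Bcl11b that is active in many projection neurons, and the forkhead factors Foxp1 and Foxp2 mark deep and middle layers. Bcl11b, Foxp1 and Foxp2 are also strongly made in the developing striatum, which lies beside the cortex.

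A level here is the mean log2 signal of a gene's kept probe sets, and a log2 change is a difference between group means of that level. Probe sets with a mean above 5.64 over all arrays were kept. They include probe sets with no gene symbol, so a share of all kept probe sets is not a share of annotated ones. The mean of the 12 Sfpq probe sets with a control mean above 10 was 12.07 to 12.12 on control arrays, 11.87 to 12.08 on Sfpq+/- arrays and 9.99 to 10.31 on Sfpq-/- arrays. It fell by 1.96 in Sfpq-/- (limma adjusted p = 1.03e-06), while in Sfpq+/- the difference of -0.13 did not pass (limma adjusted p = 0.886), so Sfpq signal was no check of the Sfpq+/- label. These 12 of 23 Sfpq probe sets were chosen by their control signal. The level over all kept Sfpq probe sets differed less, with group means of 10.14 in controls, 10.25 in Sfpq+/- and 8.98 in Sfpq-/-. The cortical markers Emx1, Emx2, Lhx2 and Pax6 were at 8.58 or more on all arrays. Threshold for all calls was an adjusted p under 0.05 in limma, with Benjamini-Hochberg adjustment over all genes or all probe sets tested.

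Fezf2 and Sox5 were the 2 members whose gene level fell in Sfpq-/- against control cortex, and no member rose. Across all genes 6.12% fell and 5.98% rose in this comparison. Tbr1, Bcl11a, Bcl11b, Foxp1 and Foxp2 did not pass, with log2 changes from -0.12 to 0.14. The median log2 change of the 7 members was -0.10, against 0.03 over all genes tested. In bulk tissue, fewer cells of a type and less RNA per cell cannot be told apart.

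The sequence around 1 listed transcription start is shown for Fezf2 and Sox5, the members that fell. It is also shown for Tbr1, a short gene that did not fall, and for Bcl11a, whose probe sets went in both directions. RefSeq lists 4 curated transcripts each of Sox5 and Bcl11a, so these genes may have other starts outside the windows shown. Each window holds 250 bases before and 50 after a start in the RefSeq table, build GRCm38.p6, and 6 of the 7 members had an entry there, with 8 windows in all. They lie at chr14:12345816-12346115 on the minus strand for Fezf2, chr6:143947057-143947356 on the minus strand for Sox5, chr2:61804203-61804502 on the plus strand for Tbr1 and chr11:24080445-24080744 on the plus strand for Bcl11a. Capitals mark matches, on either strand, to AACAAT (SOX type), GGTGTGA (T-box type), TGTTTAC (forkhead type), TGACCA (BCL11 type) or CAGATG (an E-box of proneural factors), and none of the marked matches overlap.
Fezf2: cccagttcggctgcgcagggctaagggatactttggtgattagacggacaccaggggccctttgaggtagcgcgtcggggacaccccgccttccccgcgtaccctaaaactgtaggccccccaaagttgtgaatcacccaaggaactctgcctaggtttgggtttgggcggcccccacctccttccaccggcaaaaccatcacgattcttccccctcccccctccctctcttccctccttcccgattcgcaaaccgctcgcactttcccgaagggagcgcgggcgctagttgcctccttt
Sox5: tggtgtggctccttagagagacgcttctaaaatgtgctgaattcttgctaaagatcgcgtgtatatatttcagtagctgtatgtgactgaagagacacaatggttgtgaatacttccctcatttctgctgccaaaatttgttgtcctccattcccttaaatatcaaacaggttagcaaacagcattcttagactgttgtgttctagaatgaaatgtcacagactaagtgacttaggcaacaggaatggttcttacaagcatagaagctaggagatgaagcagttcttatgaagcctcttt
Tbr1: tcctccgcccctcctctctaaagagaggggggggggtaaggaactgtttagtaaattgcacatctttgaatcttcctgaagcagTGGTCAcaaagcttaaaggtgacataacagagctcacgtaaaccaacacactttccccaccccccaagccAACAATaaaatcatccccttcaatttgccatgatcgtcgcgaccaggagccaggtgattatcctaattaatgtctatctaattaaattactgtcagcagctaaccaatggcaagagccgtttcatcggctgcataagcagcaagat
Bcl11a: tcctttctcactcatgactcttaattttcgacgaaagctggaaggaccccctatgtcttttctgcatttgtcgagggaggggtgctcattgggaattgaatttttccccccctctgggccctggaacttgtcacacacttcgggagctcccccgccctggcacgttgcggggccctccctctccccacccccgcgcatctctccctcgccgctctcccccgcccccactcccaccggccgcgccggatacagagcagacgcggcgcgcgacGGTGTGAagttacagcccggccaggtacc
The Tbr1 window held 1 SOX type and 1 BCL11 type match, and the Bcl11a window held 1 T-box type match. The Fezf2 and Sox5 windows held none of these letters. Among 32851 windows of the same length, 10.7% held the SOX type, 3.98% the T-box type, 3.65% the forkhead type, 13.6% the BCL11 type and 17.2% the E-box letters. The GC content was 61.3% for Fezf2, 63% for Bcl11a, 46% for Tbr1 and 39.7% for Sox5, with a median of 52.7% over all windows. A match is a run of letters and not a bound site.

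Fezf2, the zinc finger factor that specifies subcerebral neurons, had gene levels of 11.38, 11.41 and 11.45 on the control arrays. The Sfpq-/- arrays read 10.95, 10.92 and 10.90, all below every control. The arrays of these 2 groups did not overlap for 26.9% of all genes. Its log2 change was -0.49 (SE 0.07), a 1.41-fold fall (limma adjusted p = 0.000626), and the SD within each of these groups was 0.03 (n = 3). Its 10 probe sets all had lower means in Sfpq-/-, from -0.83 for probe set 5057150 to -0.30 for probe set 5493285. Of all kept probe sets 1.19% fell in this comparison, and of Fezf2 probe sets 5057150 and 5090183 fell by themselves, with limma adjusted p of 0.0153 and 0.0128. Probe set 5090183 read 10.41, 10.34 and 10.22 in controls and 9.57, 9.56 and 9.49 in Sfpq-/- cortex. Neither call held without control replicate 2 or without Sfpq-/- replicate 1, and 1 Fezf2 probe set passed without control replicate 1, control replicate 3 or Sfpq-/- replicate 2. No Fezf2 probe set departed from the rest of the gene in a test of each probe set against the mean of the gene's other probe sets, where 0.878% of all probe sets departed in either direction.

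Bcl11b, the zinc finger partner of Fezf2 in corticospinal neurons, read 10.15, 10.13 and 10.35 on control arrays and 10.10, 10.13 and 10.36 on Sfpq-/- arrays. The groups overlapped, and the log2 change of -0.01 (95% interval -0.22 to 0.20) did not pass (limma adjusted p = 0.957). Replicate 3 was the highest array in both groups. Its 10 probe sets changed by -0.15 (5225959) to 0.33 (4371109) and none passed. The interval leaves out a fall as large as the -0.49 of Fezf2.

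**Figure D1:**
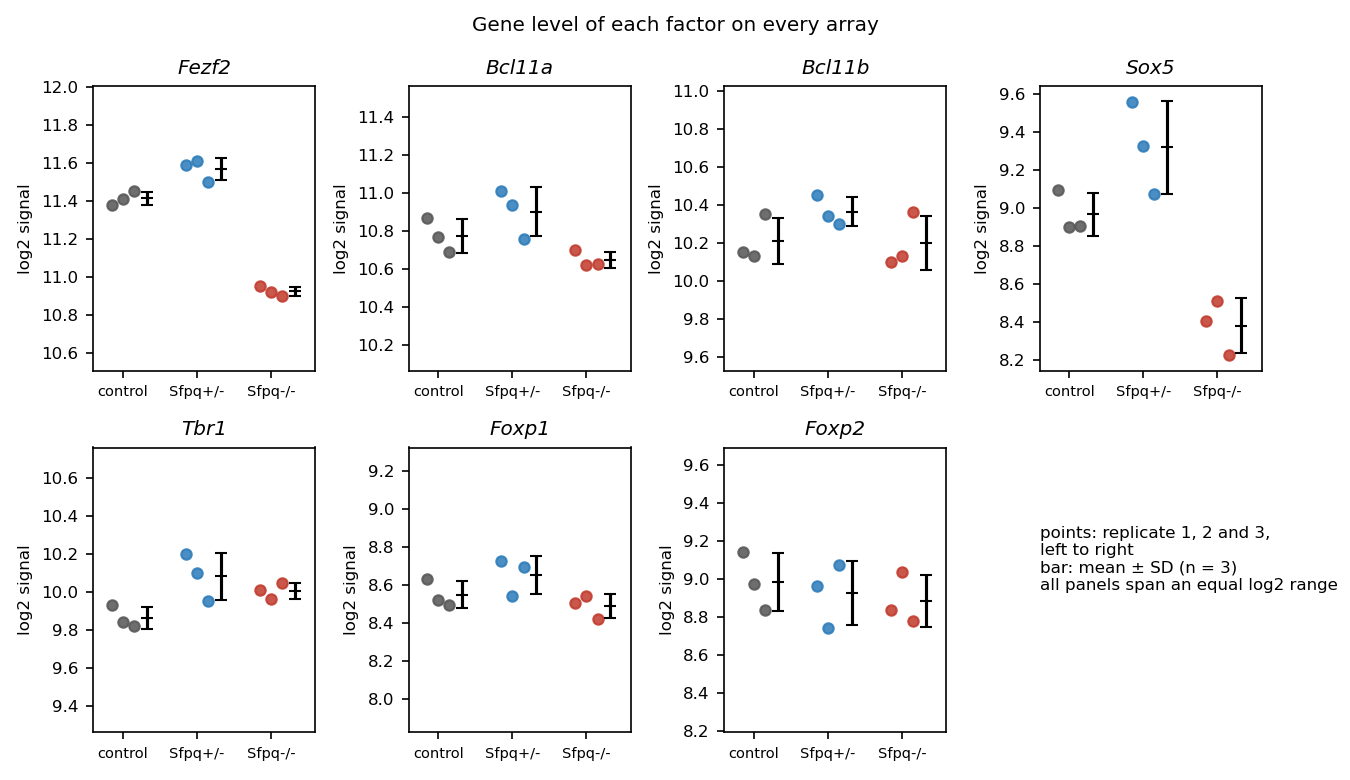
Gene level (mean log2 signal of the kept probe sets, vertical axis) of each factor on each of the 9 arrays, with points for replicates and bars for mean ± SD (n = 3). Fezf2 and Sox5 show Sfpq-/- arrays below all others, while the means of the other 5 factors differ between groups by at most 0.25 log2 units.

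Sox5, an SoxD factor with an HMG box that controls the timing of corticofugal neuron types, read 9.10, 8.90 and 8.91 on control arrays. It read 8.40, 8.51 and 8.23 on Sfpq-/- arrays, again with no overlap, as for 26.9% of all genes. Its gene level fell 1.50-fold (log2 change -0.59, SE 0.12, limma adjusted p = 0.00967). This average joined probe sets with unlike changes. Of 38 kept probe sets 15 fell, with log2 changes from -2.64 to -0.81, and 1 rose by 1.36. Over all kept probe sets 1.75% were called, of which the falling ones were 1.19% and the rising ones 0.561% of the total.

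The mean of the 15 Sox5 probe sets that fell was 10.51, 10.54 and 10.81 on control arrays, 11.03, 10.83 and 10.70 on Sfpq+/- arrays and 8.99, 9.12 and 8.83 on Sfpq-/- arrays. These were chosen by their fall, so the means only describe its size, which is more than that of the gene average. Probe set 4909984 had the lowest change (-2.64, limma adjusted p = 0.00269), from 10.04, 10.16 and 10.53 in controls to 7.66, 8.31 and 6.86 in Sfpq-/-. The probe set that rose, 4736268, read 8.19, 7.81 and 7.27 in controls and 9.06, 9.34 and 8.94 in Sfpq-/- (limma adjusted p = 0.0366), and the Sfpq+/- arrays read 8.90, 8.68 and 8.14. The probe set with the highest change, 4765728 (1.71), did not pass (limma adjusted p = 0.409), since its control arrays ranged from 4.50 to 7.50.

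The split within Sox5 was tested as the departure of each probe set from the mean of the gene's other probe sets. Of 38 probe sets 14 departed in Sfpq-/- against control, 8 lower and 6 higher, which is 36.8% against 0.878% of all probe sets (0.416% lower and 0.462% higher). The mean of the other probe sets includes those that fell, so a probe set can depart higher without rising. Of the 6 higher ones, only 4736268 also rose past the threshold by itself, and the 14 departures are not independent. With 1 array left out, 7 or 8 departed lower. The number departing higher was 2 without control replicate 2 or Sfpq-/- replicate 1, 3 without control replicate 1, control replicate 3 or Sfpq-/- replicate 2, and 4 without Sfpq+/- replicate 3. The call of probe set 4736268 as higher also ended without control replicate 2, control replicate 3, Sfpq+/- replicate 2 or any 1 of the Sfpq-/- arrays, and with no filter on dim probe sets. RefSeq lists 4 curated transcripts of Sox5. The position of each probe set in the gene was not analysed here, so the falling and rising probe sets are not assigned to exons or transcripts.

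Tbr1, the T-box factor of corticothalamic and subplate neurons, read 9.93, 9.84 and 9.83 on control arrays and 10.01, 9.97 and 10.05 on Sfpq-/- arrays. Every Sfpq-/- array lay above every control, as the arrays of the 2 groups did not overlap for 26.9% of all genes. The log2 change was 0.14 (95% interval -0.04 to 0.32) and did not pass (limma adjusted p = 0.328). Of its 25 probe sets 20 had higher means and none passed, from -0.42 (4446455) to 0.62 (5206155). With the median of the probe sets as gene level the log2 change was 0.41 and passed (limma adjusted p = 0.0343), so the size for Tbr1 depends on how probe sets are joined.

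Bcl11a, a zinc finger factor active in many cortical projection neurons, had a gene level that did not change past the threshold. It read 10.87, 10.77 and 10.69 in controls and 10.70, 10.62 and 10.63 in Sfpq-/-, with a log2 change of -0.12 (95% interval -0.31 to 0.06, limma adjusted p = 0.431). Beneath this average its probe sets went in both directions. Of 26 probe sets 5 fell by 0.69 to 0.83 and 4 rose by 1.40 to 1.53 on the log2 scale, where 1.19% of all kept probe sets fell and 0.561% rose. With no filter on dim probe sets 6 fell and none rose. In the test against the gene's other probe sets 9 of 26 departed, 5 lower and 4 higher, or 34.6% against 0.878% of all probe sets.

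The 4 Bcl11a probe sets that rose were 5518474, 4535661, 5298337 and 5391694. Probe set 4535661 read 11.44, 10.87 and 10.70 in controls, 11.76, 11.37 and 11.01 in Sfpq+/- and 12.52, 12.45 and 12.54 in Sfpq-/- cortex (log2 change 1.50, limma adjusted p = 0.0113). Probe sets 5298337 and 5391694 shared the highest change of the gene to 2 decimals (1.53, limma adjusted p = 0.0133 and 0.0386). Probe set 5107296 had the lowest change, from 13.04, 13.12 and 12.95 to 12.34, 12.09 and 12.19 (log2 change -0.83, limma adjusted p = 0.0174). On average the 4 rising probe sets read 9.93, 9.36 and 9.08 in controls and 10.96, 10.94 and 10.93 in Sfpq-/-, and the 5 falling ones read 12.55, 12.54 and 12.50 against 11.84, 11.72 and 11.76. In the rising average the control arrays were spread widely and the Sfpq-/- arrays lay close together. The groups did not overlap in either average, and the probe sets were chosen for that difference.

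The number of called Bcl11a probe sets changed when 1 array was left out. Over all kept probe sets, calls ran from 5594 to 9077 with 1 array left out, against 11007 with all arrays. Without control replicate 2 no Bcl11a probe set passed. Without control replicate 1, Sfpq-/- replicate 1 or Sfpq-/- replicate 2 there were 2 falling ones, and without control replicate 3 there was 1. With Sfpq-/- replicate 3, Sfpq+/- replicate 1 or Sfpq+/- replicate 2 left out there were 3. No rising one passed without Sfpq-/- replicate 1, 1 passed without Sfpq-/- replicate 2, and 2 passed without control replicate 3 or Sfpq-/- replicate 3. In the test against the gene's other probe sets 3 or 4 higher departures were found whichever array was left out, and between 0 and 4 lower ones, with 0 without control replicate 2, 1 without control replicate 3 or Sfpq-/- replicate 1, 2 without control replicate 1 and 3 without Sfpq+/- replicate 1, Sfpq+/- replicate 2 or Sfpq-/- replicate 2. RefSeq lists 4 curated transcripts of Bcl11a, and here too the probe sets are not assigned to exons.

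**Figure D2:**
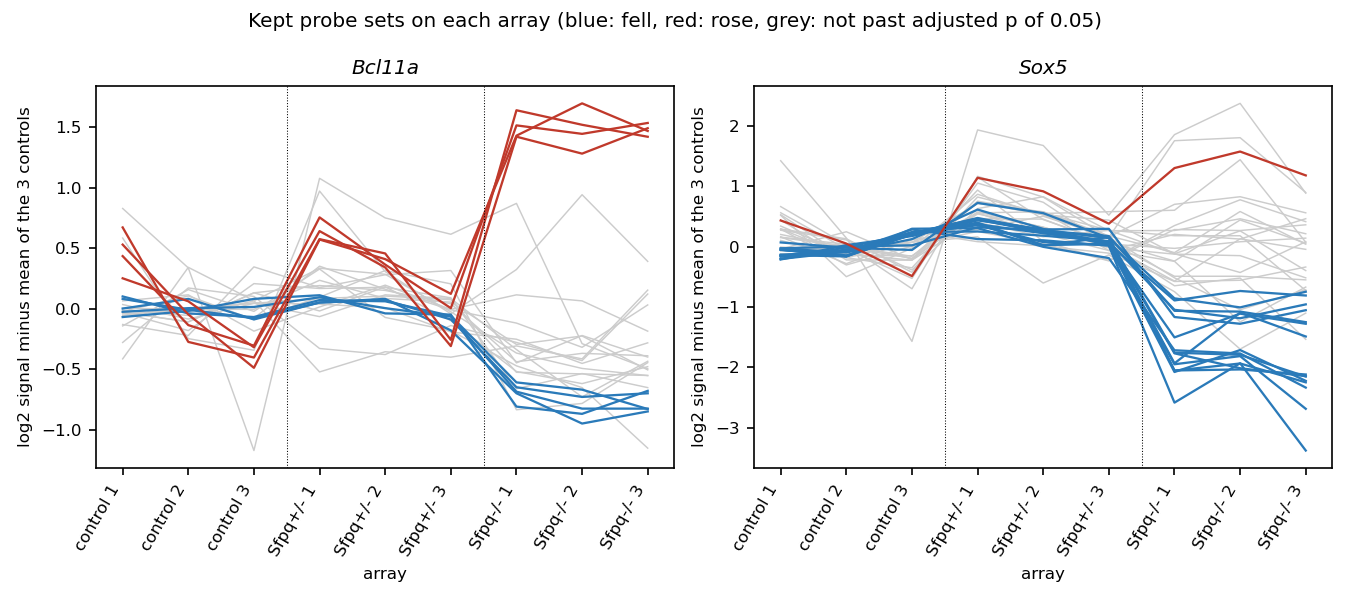
Log2 signal of each kept probe set of Bcl11a (left) and Sox5 (right) on every array, minus its mean over the 3 control arrays. Blue lines fell and red lines rose in Sfpq-/- against control: 5 and 4 in Bcl11a, and 15 and 1 in Sox5.

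The forkhead genes Foxp1 and Foxp2 did not pass at gene level. Foxp1 read 8.63, 8.52 and 8.50 in controls and 8.51, 8.54 and 8.42 in Sfpq-/-, with a log2 change of -0.06 (95% interval -0.24 to 0.11, limma adjusted p = 0.722). Foxp2 read 9.14, 8.97 and 8.84 in controls and 8.84, 9.04 and 8.78 in Sfpq-/-, with a log2 change of -0.10 (95% interval -0.35 to 0.15, limma adjusted p = 0.677). Groups overlapped for both genes, and both intervals leave out a fall as large as that of Sox5. With gene level taken as the probe set median Foxp1 changed by -0.28 and Foxp2 by 0.04, and neither passed (limma adjusted p = 0.175 for Foxp1).

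Of 36 Foxp1 probe sets 1 (2.78%), and of 28 Foxp2 probe sets 2 (7.14%), fell and also departed from the rest of the gene. Of all kept probe sets 1.19% fell, and 0.878% of those tested against their gene departed in either direction, so the Foxp1 share was near these. Foxp1 probe set 4878878 fell from 9.33, 9.10 and 9.06 to 8.01, 8.39 and 7.71 (log2 change -1.13, limma adjusted p = 0.0148), and it also departed from the other probe sets of Foxp1 (limma adjusted p = 0.0104). The lowest and highest Foxp1 changes, -1.18 for probe set 4792803 and 0.59 for 4960302, did not pass. Foxp2 probe sets 5236670 (-1.36, limma adjusted p = 0.0428) and 5346204 (-1.09, limma adjusted p = 0.021) fell, and both departed from the gene's other probe sets. No Foxp2 probe set departed without control replicate 1 or 2, and 1 departed without control replicate 3, Sfpq+/- replicate 2 or 3, or Sfpq-/- replicate 1 or 3. Probe set 5236670 read 8.98, 8.76 and 8.23 in controls and 6.78, 7.79 and 7.32 in Sfpq-/-. The highest Foxp2 change, 0.31 for probe set 5399884, did not pass. The call on Foxp1 probe set 4878878 ended without control replicate 1 or 2, and neither Foxp2 call held without control replicate 1, control replicate 2, Sfpq-/- replicate 1 or Sfpq-/- replicate 3. With control replicate 3 or any 1 Sfpq+/- array left out, 1 Foxp2 probe set passed. With no filter on dim probe sets no probe set of either gene passed, and 1 of each gene departed.

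**Figure D3:**
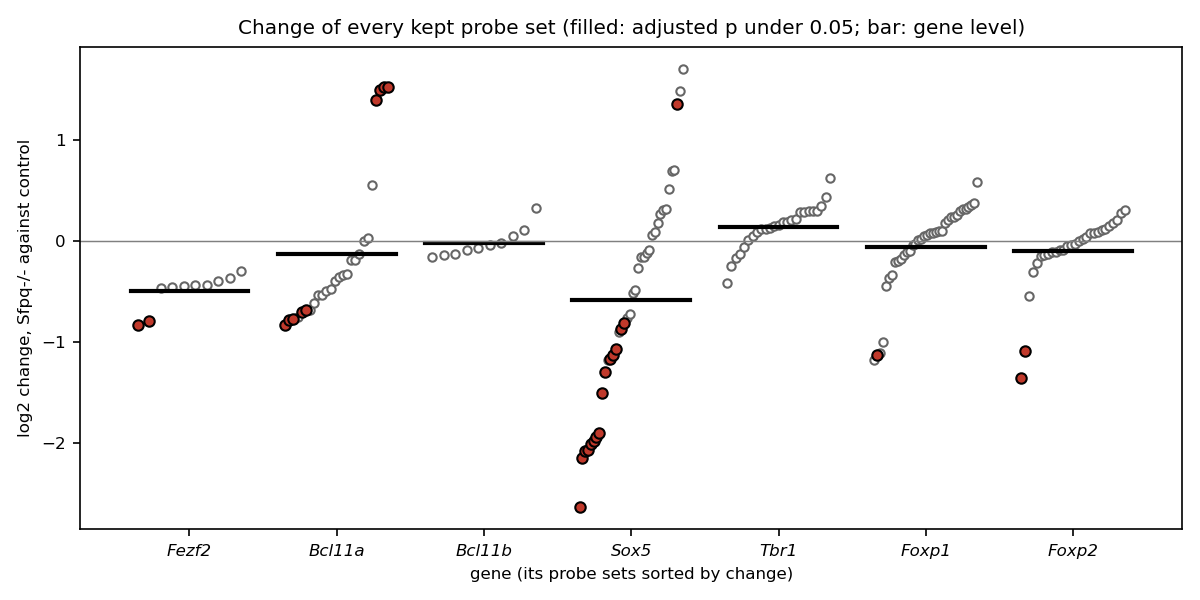
Log2 change of every kept probe set in Sfpq-/- against control (vertical axis), sorted within each gene, with filled points past an adjusted p of 0.05 and a bar at the change of the gene level. Fezf2 and Bcl11b probe sets lie close together, while those of Bcl11a run from -0.83 to 1.53 and those of Sox5 from -2.64 to 1.71.

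Over all 7 members 25 of 173 kept probe sets fell and 5 rose in Sfpq-/- against control (14.5% and 2.89%, where 1.19% of all kept probe sets fell and 0.561% rose). Sox5 held 15 and Bcl11a 5 of those that fell, and the 5 that rose were 4 of Bcl11a and 1 of Sox5. Against the rest of their gene 26 of 173 departed (15%, against 0.878% of all probe sets). The base of 1.19% and 0.561% includes probe sets with no gene symbol, which 931387 of 1256831 had before the filter. The base of 0.878% is the 248590 kept probe sets of genes tested.

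Gene span differed widely between the members, from 7.81 kb for Fezf2 and 11.25 kb for Tbr1, through 93.7 kb for Bcl11b and 97 kb for Bcl11a, to 541 kb for Foxp2, 597 kb for Foxp1 and 954 kb for Sox5. Spans were taken by symbol from the RefSeq table of GRCm38.p6. Among 205 measured genes of at least 500 kb, 58% fell in Sfpq-/-, and the median of their log2 changes was -0.45 with quartiles of -0.82 and -0.10. Sox5 (-0.59) lay within those quartiles, Foxp1 (-0.06) lay above the upper one, and Foxp2 was at it. With gene level taken as the probe set median the Foxp1 change was -0.28, below that upper quartile. Of 7854 genes under 20 kb, 1.86% fell, with quartiles of -0.06 and 0.14, and the fall of Fezf2 by 0.49 was outside those quartiles.

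**Figure D4:**
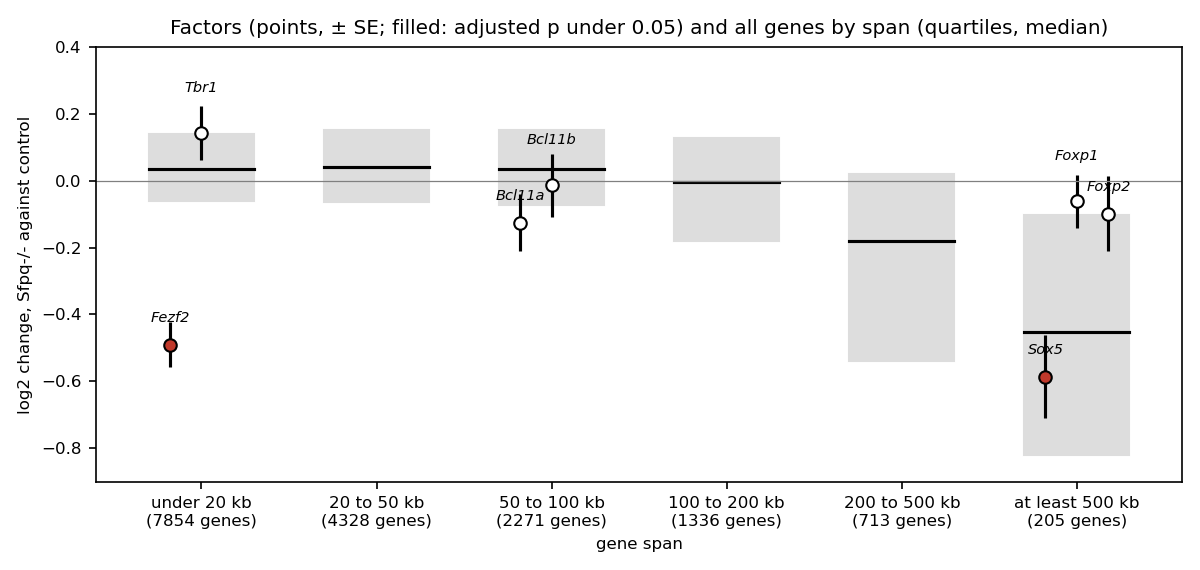
Log2 change in Sfpq-/- against control of each factor (points ± SE, filled where adjusted p was under 0.05) over the quartiles (grey) and median (line) of all genes in 6 classes of gene span. Fezf2 lies below the quartiles of genes under 20 kb, Sox5 lies within those of genes of at least 500 kb, and Foxp1 lies above them.

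In Sfpq+/- against control cortex no member passed, and 0.00% of all genes did (0 of 16854 in limma, with 715 at an unadjusted p under 0.05). Of the 7 members 6 had a higher mean in Sfpq+/-. The members' median was 0.15, against 0.03 over all genes. Sox5 read 9.56, 9.33 and 9.07 in Sfpq+/- (log2 change 0.35, 95% interval 0.08 to 0.63, limma adjusted p = 0.886), and replicate 3 overlapped the controls. Tbr1 read 10.20, 10.10 and 9.95 (log2 change 0.22) and Fezf2 read 11.59, 11.61 and 11.50 (log2 change 0.15). For these 2 genes every Sfpq+/- array lay above every control, as the arrays of the groups did not overlap for 12.5% of all genes. Bcl11b read 10.45, 10.34 and 10.30 (log2 change 0.16), Bcl11a 11.01, 10.94 and 10.76 (0.13) and Foxp1 8.73, 8.54 and 8.69 (0.10). Foxp2 read 8.96, 8.74 and 9.07 (-0.06). Replicate 1 was the highest Sfpq+/- array for Bcl11a, Bcl11b, Sox5, Tbr1 and Foxp1.

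No member probe set passed in this comparison, and 0.00% of all probe sets did (28244 of 628415 at an unadjusted p under 0.05). The 15 Sox5 probe sets that fell in Sfpq-/- had Sfpq+/- changes from 0.04 to 0.48, none of them below 0. The 4 Bcl11a probe sets that rose in Sfpq-/- changed by 0.23 to 0.37 and the 5 that fell by -0.01 to 0.02. Both comparisons use the same control arrays. The female-specific RNA Xist was between 4.90 and 5.87 on all Sfpq+/- arrays and at 11.79, 11.65 and 5.29 on the controls, so Xist differed between these groups. With the Xist level as a covariate the Sox5 log2 change was 0.38 and that of Bcl11b 0.04 in place of 0.16, and neither passed. On the Sfpq-/- arrays Xist was at 11.48, 5.06 and 5.19, so it was uneven in the comparisons with Sfpq-/- as well.

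Sfpq-/- against Sfpq+/- cortex gave lower means for all 7 members, with a median of -0.17 against 0.03 over all genes. The sign of Foxp2 turned in 4 of the 19 alternatives described at the end, and that of Tbr1 in 1. Fezf2 fell by 0.64 (SE 0.07, limma adjusted p = 8.75e-05) and Sox5 by 0.94 (SE 0.12, limma adjusted p = 0.000447), where 7.25% of all genes fell and 4.58% rose. The other changes were -0.25 for Bcl11a (limma adjusted p = 0.0935), -0.17 for Bcl11b, -0.16 for Foxp1, -0.08 for Tbr1 and -0.04 for Foxp2, none of which passed. Of single probe sets, 17 of Sox5, 8 of Bcl11a, 2 of Fezf2, 2 of Foxp2 and 1 of Foxp1 fell and 3 of Bcl11a rose, where 1.93% of all probe sets were called (1.50% lower and 0.425% higher). With 1 array left out 15 to 17 of Sox5 fell, while no Bcl11a probe set fell without Sfpq+/- replicate 1, and none fell or rose without Sfpq+/- replicate 2. Without Sfpq-/- replicate 1 there were 2 falling Bcl11a probe sets, without Sfpq+/- replicate 3, Sfpq-/- replicate 2 or Sfpq-/- replicate 3 there were 3, and in these 4 cases and without control replicate 2 none rose. In the test against the other probe sets of the gene, 14 of Sox5, 6 of Bcl11a, 2 of Foxp2 and 1 each of Foxp1 and Fezf2 departed, where 0.795% of all probe sets did (0.367% lower and 0.428% higher). With 1 array left out Sox5 had 5 to 8 lower and 2 to 5 higher departures and Bcl11a 0 or 1 lower and 2 to 4 higher ones. The single Foxp2 calls ended without Sfpq+/- replicate 2, Sfpq+/- replicate 3 or Sfpq-/- replicate 1, and 1 was left without control replicate 2, Sfpq+/- replicate 1 or Sfpq-/- replicate 3. For Fezf2 1 of its 2 calls was left without Sfpq+/- replicate 1, Sfpq+/- replicate 2 or Sfpq-/- replicate 1. The Fezf2 departure was found only with all arrays and without control replicate 1 or 3. The Foxp1 departure ended without Sfpq+/- replicate 1, Sfpq+/- replicate 2 or Sfpq-/- replicate 1, and 1 Foxp2 probe set departed without any 1 Sfpq+/- array. This comparison shares its Sfpq-/- arrays with the first one.

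**Figure D5:**
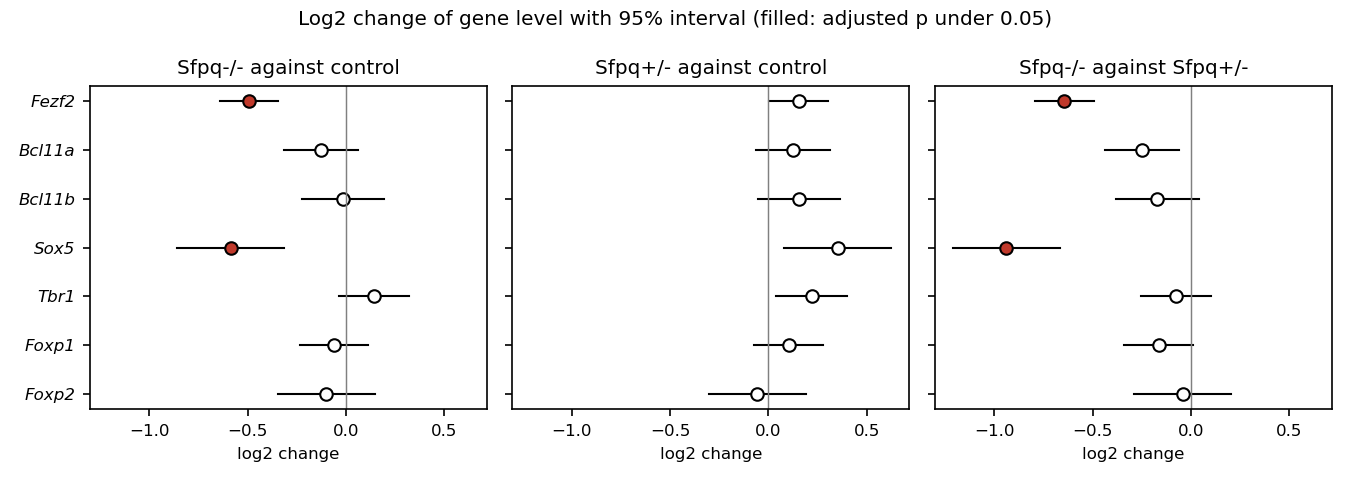
Log2 change of gene level (horizontal axis) with its 95% interval for each factor in the 3 comparisons, filled where limma's adjusted p was under 0.05. Fezf2 and Sox5 are filled in both comparisons that include Sfpq-/-, and no factor is filled in Sfpq+/- against control.

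The genes with the most similar pattern over the 9 arrays were found by Pearson correlation of gene levels, which here joins differences between groups and between arrays of a group. For Fezf2 they were Kcnq3 (r = 0.996), Castor2 (0.992) and Gsg1l (0.992), and all 3 fell in Sfpq-/-. For Sox5 they were Lrrc7 (0.992), Sorbs2 (0.992) and Sema4d (0.988), of which Lrrc7 and Sorbs2 fell and Sema4d changed by -0.18 without passing. For the other members they were Clvs1 (0.97), Bdh1 (0.962) and Inpp5k (0.955) for Bcl11a, Gas7 (0.941), Shank2 (0.932) and Necab1 (0.93) for Bcl11b, and Epb41l1 (0.961), Rnf44 (0.959) and Tecpr1 (0.956) for Tbr1. Foxp1 was most like Atg16l1 (0.938), Nsd3 (0.937) and Rsf1 (0.937), and Foxp2 most like Stk33 (0.977), Bco2 (0.924) and Rnf145 (0.904). None of these 15 genes passed in Sfpq-/- against control. Among the members, Fezf2 and Sox5 had r = 0.939 and Bcl11a and Sox5 r = 0.906 over the 9 arrays. These are descriptions over arrays that share group differences.

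Close relatives of the members moved in both directions in Sfpq-/- against control, where 6.12% of all genes fell and 5.98% rose. Of 7 measured, the SoxD gene Sox6 (-0.83, limma adjusted p = 0.00033) and the Tbr1 relative Eomes (-0.23, limma adjusted p = 0.0489) fell, and Fezf1 (2.07, limma adjusted p = 0.00272) and the SoxD gene Sox13 (0.54, limma adjusted p = 0.000392) rose. The list's median was 0.06 against 0.03 over all genes.

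Other genes of projection neuron types were grouped by the neurons they mark, in lists chosen with earlier results of these data known. Over all genes 6.12% fell and 5.98% rose in Sfpq-/- against control. Callosal and upper-layer genes numbered 11, of which 8 fell and 1 rose (median -0.40 against 0.03 over all genes). The 6 with the smallest adjusted p were Unc5d (-2.21), Rorb (-1.34), Ptn (-1.51), Cux2 (-0.57), Pou3f2 (-0.51) and Pou3f3 (-0.35). Among all genes of 200 to 500 kb 38.1% fell, and of those of at least 500 kb 58% fell. The part of gene span, or of cell numbers, in the changes of the callosal list was not tested. Of 9 corticofugal genes 2 fell, the Fog-family cofactor gene Zfpm2 (-0.70) and the LIM-domain-binding gene Ldb2 (-0.50), and none rose (median 0.03). Of 9 subplate genes Lpar1 (-0.37) fell and Moxd1 (0.38) and Nxph4 (0.29) rose (median 0.15). Of 7 pan-projection neuron genes Zbtb18 (-0.65) and Neurod6 (-0.41) fell, and the vesicular glutamate transporter gene Slc17a7 (0.75) and Neurod1 (0.36) rose (median -0.12). Of 9 pan-neuronal genes Syt1 (-0.77) fell and none rose, with a median of 0.03, the same as over all genes to 2 decimals. In Sfpq+/- against control no gene of these lists passed, and the medians of the pan-projection neuron and pan-neuronal lists were 0.23 and 0.12.

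Lists of progenitor and non-neuronal markers were set beside the members, where 6.12% of all genes fell and 5.98% rose in Sfpq-/- against control. Of 8 intermediate progenitor markers Neurod4 (-1.11), Neurog2 (-0.92), Insm1 (-0.37) and Eomes fell and Dll3 (0.70) rose, and their mean level was 9.999 to 10.01 on control and 9.63 to 9.83 on Sfpq-/- arrays. Of 9 radial glia markers none passed (smallest adjusted p 0.0849, Hes5), with mean levels of 10.72 to 10.86 and 10.73 to 10.97. Of 8 Cajal-Retzius markers 6 rose, Lhx5 (1.02), Ebf2 (0.73), Calb2 (0.69), Nhlh2 (0.41), Lhx1 (0.48) and Ebf3 (0.34). Reln (-0.04) and Trp73 (-0.09) leaned lower and did not pass (limma adjusted p = 0.811 and 0.529). The mean level of the 8 was 8.53 to 8.74 on control and 9.05 to 9.17 on Sfpq-/- arrays. Of 10 microglia and macrophage markers 7 rose, with Cd68 (0.51), Tyrobp (0.36), Trem2 (0.34), P2ry12 (0.28), C1qb (0.30) and C1qc (0.35) first, and mean levels were 7.75 to 7.80 and 8.06 to 8.10. Rgs5 (0.30) rose among 7 endothelial and pericyte markers (9.12 to 9.27 and 9.27 to 9.50). None of 7 meningeal markers (smallest adjusted p 0.317, Foxc1) and none of 4 erythroid markers (smallest adjusted p 0.183, Slc4a1) passed, and Lhx2 (-0.34), which is also in the callosal list, fell among 4 cortical identity markers. Tbr1 is itself made in Cajal-Retzius cells and in neurons that follow intermediate progenitors, and the part of these shifts in the values of the members was not tested.

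Markers of the ganglionic eminences, striatum and interneurons had the widest range over control arrays of the 15 lists, with a mean level over 12 genes of 9.10, 8.66 and 8.37 on control replicates 1, 2 and 3. It was 8.77, 8.48 and 8.67 in Sfpq+/- and 8.77, 8.70 and 8.75 in Sfpq-/- cortex. Of these 12 genes Gad1 (0.98) and Ebf1 (0.62) rose and Drd1 (-0.63) fell in Sfpq-/- against control, where 5.98% of all genes rose and 6.12% fell. Control replicate 1 was the highest control for Foxp1, Foxp2, Bcl11a, Sox5 and Tbr1, and for the mean of the 4 rising Bcl11a probe sets. It was not for Bcl11b and Fezf2, whose highest control was replicate 3. Control replicate 3 was the lowest control for Foxp1, Foxp2, Bcl11a and Tbr1 and for that mean. The part of this variation in the levels of the members and in the rising Bcl11a probe sets was not tested.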

How the data were processed

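Log2 signals per probe set were deposited by the authors. The submitters' processing notes name Expression Console, version 1.2.0.20. Not given in the sources used here: how background, normalization and summary were done, and the genome build. The log2 unit was taken from the values, and nothing was renormalized. Probe sets were named from the platform table (318760 of 1256831 had 1 symbol, 6684 had several and were not used), and old symbols were updated through RefSeq synonyms. The 628415 probe sets with a mean above 5.64 were kept. Genes with at least 3 kept probe sets were averaged (16854 genes). Gene levels, single probe sets, and each probe set minus the mean of its gene's other probe sets (248590) were fitted in limma 3.58.1 (R 4.3.3) with 3 group means over all 9 arrays and Benjamini-Hochberg adjustment.

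The members and gene lists were chosen with earlier results of these data known. All members were named. The probe sets with the lowest and highest change are identified for Sfpq-/- against control, and other comparisons are given as counts. In each list, genes that passed in Sfpq-/- against control were named, up to 6 by adjusted p, or 1 where none passed. The 3 genes most like each member were named, leaving out clone names. Precision is limited by having only 3 arrays in a group. On simulated data for Sfpq-/- against control with 16854 genes, 50% of genes changed by 0.5 and 94% of genes changed by 1 were found, with 3 false calls. Among 628415 simulated probe sets, a change of 1 was found in 3% and a change of 2 in 56%. The simulations changed only a small share of rows, in independent normal noise. In the data 2040 genes and 11007 probe sets were called, so the simulated shares may not hold there.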

Additional observations from a re-analysis of the deposited data

How the results depend on the processing

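The falls of Fezf2 and Sox5 kept their direction and passed under all 19 alternatives in both comparisons with Sfpq-/-. Against control, Fezf2 ran from -0.51 to -0.41 and Sox5 from -0.75 to -0.51. Alternatives were quantile normalization, equal array medians, other limits for dim probe sets, the median of probe sets, 2 groups only, array weights (gene by gene, since the default did not converge), robust eBayes with trend, Xist as covariate, a replicate block and leaving out each array. Members that had not passed did so in 5 cases. They were Tbr1 with the median of probe sets, and, in Sfpq-/- against Sfpq+/-, Bcl11a with the replicate block (-0.25, adjusted p = 0.0427), with robust eBayes (0.0498) and without Sfpq+/- replicate 3 (0.0488), and Bcl11b with array weights (0.0487).

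Signs turned only for values that did not pass, and the cause was not tested. Against control in Sfpq-/-, Foxp1 ran from -0.275 with the median of probe sets to 0.047 with probe sets above the 75th percentile, Foxp2 0.0421 with the median of probe sets, and Bcl11b ran from -0.0954 to 0.0564 with 1 array left out, above 0 without control replicate 3, Sfpq-/- replicate 1 or Sfpq-/- replicate 2. In Sfpq+/- against control Foxp2 ran from -0.131 to 0.0353 with 1 array left out, above 0 without control replicate 1 or Sfpq+/- replicate 2. In Sfpq-/- against Sfpq+/-, Foxp2 was 0.024 above the 75th percentile and 0.0915 with the median, and ran from -0.134 to 0.0316 with 1 array left out, above 0 without replicate 3 of either group. Tbr1 was 0.27 with the median.

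Counts over all genes moved with array weights, to 4609 from 2040 in Sfpq-/- against control and to 3635 from 1994 against Sfpq+/-. In Sfpq+/- against control 1 gene passed above the 75th percentile. With 1 array left out, the gene counts ran from 1311 to 2453, from 0 to 1 and from 1397 to 2267 in Sfpq-/- against control, Sfpq+/- against control and Sfpq-/- against Sfpq+/-. Single probe sets ran from 5594 to 9077 (11007 with all arrays) and from 6091 to 10935 (12108). Departures from the gene ran from 886 to 1926 (2183) and from 614 to 1832 (1976). With no filter on dim probe sets, 7161 single probe sets, 1439 departures against control and 1215 departures against Sfpq+/- were called. With no filter, the 4 Bcl11a probe sets and the 1 Sox5 probe set that rose did not pass, and neither did those of Foxp1 and Foxp2 that fell.

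The labels do not say that replicate numbers mark a shared source. Of 9 correlations of deviations between same-numbered arrays 5 were above 0.1, with 0.303 to 0.574 for replicate 3, and the lowest was -0.055. Between arrays of different numbers they ran from -0.533 to 0.363, and control replicate 1 correlated best with Sfpq-/- replicate 2. These values do not settle whether same-numbered arrays share a source. The main fit did not treat the samples as paired. With the replicate block 2469 genes were called in Sfpq-/- against control, 0 in Sfpq+/- against control and 2367 in Sfpq-/- against Sfpq+/-.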
